A study of Mus musculus with 10 samples.

Results

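The Fc gamma receptor genes are 6 of the 19782 genes measured in sorted hippocampal microglia of the mouse: Fcgr1, Fcgr3, Fcgr4, Fcer1g, Fcgr2b and Fcgrt. They were chosen by name, as the receptors for immunoglobulin G (IgG), the signalling chain that the activating ones share, and the heavy chain of the neonatal Fc receptor. All 6 passed the filter on low counts that left 12505 genes for testing. RNA came from the hippocampus, from CD45low CD11b+ cells, and was made into Smart-Seq libraries. The 5xFAD line expresses human transgenes, mutated as in familial Alzheimer disease, from a neuronal promoter, and its mice develop amyloid plaques. The 5xFAD repopulated group (3 libraries) came from animals fed PLX3397, a CSF1 receptor inhibitor that removes microglia, at 290 mg/kg of chow for 1 month from 4 months of age, after which normal diet for 1 month let the cells return. The 5xFAD control group (3 libraries) and the wild-type group (4 libraries) had normal diet, and the labels give no age for them. Nothing in the labels ties the libraries of a group to separate animals or says whether animals were pooled. The p-values therefore set the group differences against the spread of these samples within groups. How much of that spread is technical cannot be told from the labels.

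Fc gamma receptors bind the constant part of IgG antibodies and so let a microglial cell, the resident macrophage of the brain, recognise and engulf what antibodies have coated. The activating receptors have no signalling motif of their own and depend on the gamma chain, whose ITAM (an immunoreceptor tyrosine-based activation motif) recruits the kinase Syk. The inhibitory receptor carries the opposing motif, an ITIM, which recruits phosphatases. The neonatal Fc receptor is of another family: it resembles MHC class I, pairs with beta-2-microglobulin and returns IgG from endosomes to the cell surface.

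The promoters of the activating receptors, with that of the inhibitory one for comparison, are given below because lineage and interferon factors are known to act on this gene family. They run from 250 bases before to 50 after the annotated start, read 5′ to 3′ on the gene's strand, from RefSeq on GRCm38.p6. All 6 genes had an entry. Capitals mark matches, on either strand, to the PU box GAGGAA of the myeloid factor PU.1 (printed as TTCCTC where it lies on the other strand), the gamma-activated site TTCNNNGAA and the interferon response element, which is GAAA, 2 bases of any kind and GAAA again.
Fcgr1 (chr3:96293920-96294219, minus strand): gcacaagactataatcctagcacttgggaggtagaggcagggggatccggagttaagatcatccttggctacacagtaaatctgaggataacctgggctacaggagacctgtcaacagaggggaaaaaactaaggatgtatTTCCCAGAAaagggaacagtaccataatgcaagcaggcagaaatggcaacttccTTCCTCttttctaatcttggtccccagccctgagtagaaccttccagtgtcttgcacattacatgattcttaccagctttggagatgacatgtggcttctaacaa
Fcgr3 (chr1:171059354-171059653, minus strand): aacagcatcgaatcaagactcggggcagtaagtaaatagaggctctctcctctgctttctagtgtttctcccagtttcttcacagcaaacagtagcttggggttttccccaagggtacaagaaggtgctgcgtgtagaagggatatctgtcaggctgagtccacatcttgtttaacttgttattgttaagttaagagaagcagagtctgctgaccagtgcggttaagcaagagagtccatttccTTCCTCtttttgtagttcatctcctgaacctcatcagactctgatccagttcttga
Fcgr4 (chr1:171018676-171018975, plus strand): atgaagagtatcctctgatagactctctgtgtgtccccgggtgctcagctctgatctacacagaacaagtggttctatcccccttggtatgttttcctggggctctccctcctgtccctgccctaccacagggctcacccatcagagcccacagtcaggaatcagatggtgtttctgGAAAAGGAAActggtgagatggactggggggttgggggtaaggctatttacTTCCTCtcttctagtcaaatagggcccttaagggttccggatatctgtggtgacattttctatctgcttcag
Fcgr2b (chr1:170976022-170976321, minus strand): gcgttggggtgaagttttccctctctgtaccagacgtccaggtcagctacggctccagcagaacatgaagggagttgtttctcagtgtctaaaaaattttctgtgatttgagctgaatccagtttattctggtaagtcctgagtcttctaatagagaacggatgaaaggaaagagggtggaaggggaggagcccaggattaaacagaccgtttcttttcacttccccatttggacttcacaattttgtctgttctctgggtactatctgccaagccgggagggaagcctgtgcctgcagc

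All 3 activating receptor promoters held a PU box, whose first base lay at -55 in Fcgr1, -6 in Fcgr3 and -22 in Fcgr4, counted from the start. Fcgr1 also held a gamma-activated site at -109, and Fcgr4 an interferon response element at -73. The promoters of Fcgr2b, Fcer1g and Fcgrt held none of the 3 motifs. A PU box was found in 28.3% of 32851 promoters of the same length, a gamma-activated site in 8.3% and an interferon response element in 3.44%. For Fcgr3 the first of 2 annotated starts with a promoter entry is shown, and its -6 counts from that start. Both of these starts lie inside the annotated span of the gene (chr1:171051169-171065915), not at its outer end, whose promoter was not examined.

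The libraries held 18501136 to 23286814 estimated counts. Wild-type replicate 3 stood apart, at -67 on the second principal component (21.5% of the variance) while the other libraries of its group lay at 20.9 to 52.9. Its summed astrocyte markers were at 228 CPM (counts scaled to library size with TMM factors), against 12 to 21.7 CPM in the other 3. The 10 microglia markers were all detected in every group, with summed levels of 41900 to 57000 CPM in repopulated, 53000 to 57400 in control and 48700 to 60100 in wild-type libraries. Transcripts of 4 Y-linked genes were low in control replicates 1 and 3 and wild-type replicate 2 (5.12 to 16 CPM before TMM scaling) and present in the other libraries (342 to 484 CPM).

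Set against gene length, Fcer1g and Fcgr3 were among the most abundant transcripts of these cells, and the other members followed well below. Deposited TPM (abundance per unit of transcript length) of Fcer1g averaged 7970 in repopulated, 8400 in control and 6970 in wild-type microglia. These levels ranked it 13 in repopulated, 11 in control and 12 in wild-type microglia among the 19782 genes. Fcgr3 averaged 6800 TPM in repopulated, 5490 in control and 7160 in wild-type microglia. The inhibitory receptor gene Fcgr2b came next, with 950 TPM in repopulated, 1150 in control and 1090 in wild-type microglia. Fcgr1 averaged 198 TPM in repopulated, 189 in control and 250 in wild-type microglia. Fcgrt averaged 111 TPM in repopulated, 71 in control and 168 in wild-type microglia, while Fcgr4 averaged 44.1 TPM in repopulated, 73.3 in control and 62.1 in wild-type microglia.

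The order of these TPM levels was the same for the 4 most abundant genes in both 5xFAD groups, and the libraries of neighbouring genes there did not overlap. Their exceptions lay elsewhere: Fcgr4 and Fcgrt overlapped in control microglia, and in wild-type microglia Fcgr3 overlapped with Fcer1g and Fcgr1 with Fcgrt. Fcer1g stood above Fcgr3 in 7 of 10 libraries, all 6 from 5xFAD mice and 1 from wild type. Together the 6 genes made up 1.58% to 1.64% of all TPM in repopulated, 1.4% to 1.61% in control and 1.46% to 1.8% in wild-type libraries, which overlap.

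**Figure D1:**
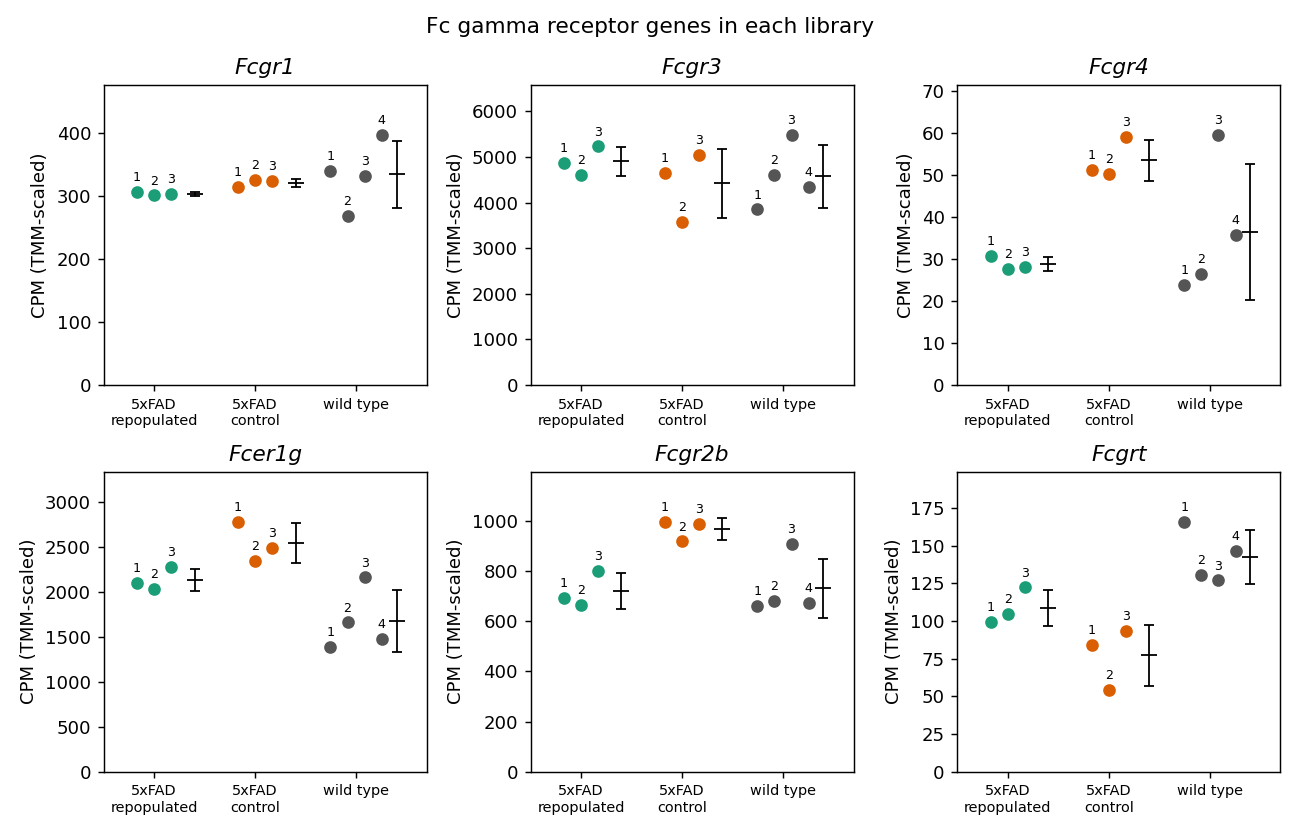
TMM-scaled CPM of the 6 genes (vertical axes, from 0) in each library, numbered by replicate, with the group mean and SD as bars. Fcgrt is lowest and Fcer1g highest in the 3 control libraries relative to the 4 wild-type libraries, and Fcgr4 and Fcgr2b are lower in the 3 repopulated than in the 3 control libraries.

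These genes were first compared between the genotypes, both on normal diet. In control microglia Fcer1g was 1.52-fold higher and Fcgrt 1.84-fold lower than in wild-type microglia, and the other 4 genes did not pass. Over all tested genes, 10.1% were called higher and 8.04% lower at an edgeR adjusted p under 0.05. The median log2 fold change was 0.18 over the 6 members and -0.06 over all 12505 genes. The libraries of the groups did not overlap for 3 members (Fcer1g, Fcgr2b and Fcgrt), against 26.7% of all tested genes. In RNA from bulk samples, fewer cells of a type and less RNA per cell cannot be told apart.

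The second comparison asked what repopulation changed in 5xFAD microglia. None of the 6 genes passed in edgeR's quasi-likelihood test between repopulated and control microglia, where 0.568% of all tested genes did. Fcgr4, Fcgr2b and Fcgrt had unadjusted p-values under 0.05 (3 of 6), DESeq2 called 1 of them (Fcgr4) and limma-voom 0. Groups did not overlap for 5 of 6 members, all but Fcgr3, beside 30.7% of all tested genes. The median log2 fold change was -0.16 over the members and 0 over all genes.

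Repopulated microglia were also set against wild-type microglia. Again none of the 6 passed in edgeR, beside 4.18% of all tested genes. Fcer1g and Fcgrt had unadjusted p-values under 0.05 (2 of 6), and DESeq2 and limma-voom each called 0. Only Fcgrt did not overlap between these groups, which was so for 16% of all tested genes. The comparisons share libraries in pairs, so their values are not independent of each other.

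**Figure D2:**
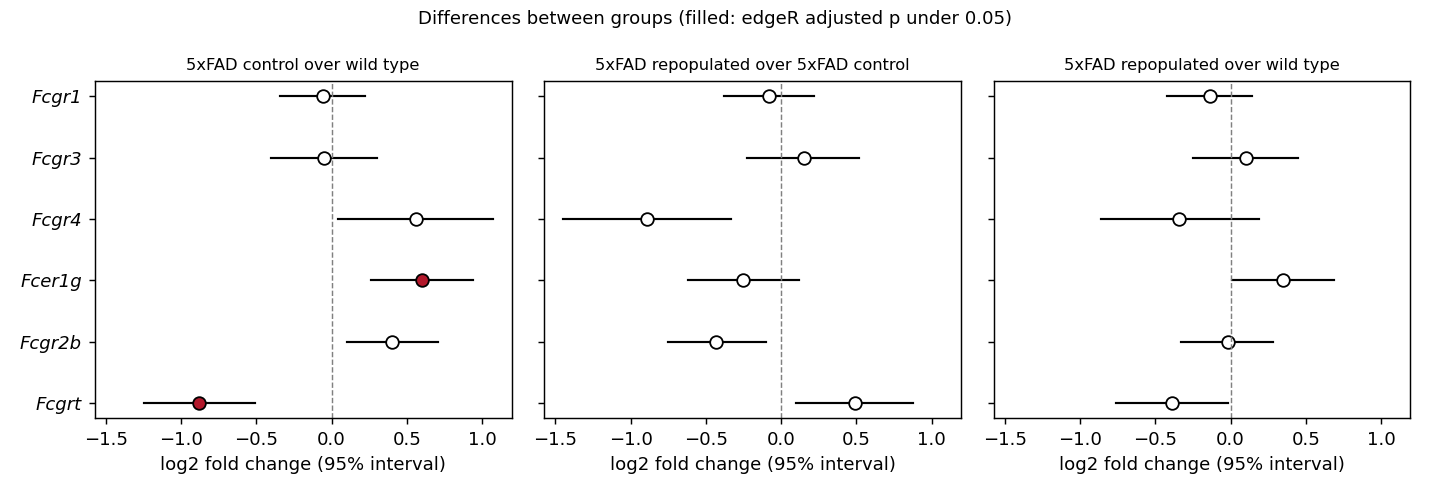
Log2 fold changes of the 6 genes with 95% intervals (horizontal axis) in each of the 3 comparisons, filled where the edgeR adjusted p was under 0.05. The 2 filled points are Fcer1g (0.60) and Fcgrt (-0.88) in control over wild type.

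Fcgr1 encodes the high-affinity receptor for IgG (Entrez 14129, chr3:96282909-96293969 in GRCm38.p6). It was at 306, 300 and 303 CPM in repopulated, 314, 325 and 323 CPM in control, and 340, 268, 331 and 396 CPM in wild-type libraries. Repopulated libraries all lay below control ones, by little, and the wild-type libraries spanned both groups. The log2 fold change was -0.06 for control over wild type (95% interval -0.34 to 0.22, edgeR adjusted p = 0.798). For repopulated over control it was -0.08 (-0.38 to 0.22, edgeR adjusted p = 0.811), and for repopulated over wild type -0.14 (edgeR adjusted p = 0.717).

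Fcgr3, the low-affinity activating receptor (Entrez 14131, chr1:171051169-171065915), was the most abundant of the ligand-binding receptors. It had 4867, 4602 and 5230 CPM in repopulated, 4646, 3569 and 5040 CPM in control, and 3849, 4605, 5481 and 4347 CPM in wild-type libraries. All 3 groups overlapped. The log2 fold changes were -0.05 for control over wild type (-0.4 to 0.3, edgeR adjusted p = 0.867), 0.15 for repopulated over control (-0.23 to 0.52, edgeR adjusted p = 0.698) and 0.10 for repopulated over wild type (edgeR adjusted p = 0.857). On the scale of log2(TPM + 1), tested with limma after seeing the data, control over wild type was -0.39 and passed (adjusted p = 0.0267, 0.0267 to 0.934 over the 23 alternatives). On that scale the median of all tested genes was itself -0.28.

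Fcgr4 encodes a mouse activating receptor that binds IgG2 subclasses (Entrez 246256, chr1:171018926-171029761). It had 30.8, 27.6 and 28.1 CPM in repopulated, 51.2, 50.2 and 59.1 CPM in control, and 23.8, 26.5, 59.5 and 35.7 CPM in wild-type libraries. Every repopulated library lay below every control one, and 3 of 4 wild-type libraries did too, with wild-type replicate 3 above them all. Repopulated over control gave a log2 fold change of -0.89 (SE 0.26, 95% interval -1.45 to -0.33), with an edgeR adjusted p of 0.115. That comparison passed with DESeq2 (-0.91, adjusted p = 0.0247), with the compared groups alone (-0.89, adjusted p = 0.00602) and without wild-type replicate 3 (-0.88, adjusted p = 0.0181), over a range of 0.00602 to 0.413 in all alternatives.

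For control over wild type, Fcgr4 was at a log2 fold change of 0.56 (0.04 to 1.07, edgeR adjusted p = 0.129). Wild-type replicate 3 decided this call: without it the value was 0.90 (edgeR adjusted p = 0.0011, with 0.0011 to 0.605 over the alternatives). It was smaller at 0.26 with the GC and length correction and 0.35 without the libraries low in Y-linked transcripts. With limma on log2(TPM + 1), where the median of all tested genes was -0.28, it was 0.30. Between repopulated and wild-type microglia it was -0.34 (edgeR adjusted p = 0.605), and 0.01 without wild-type replicate 3 (adjusted p = 0.986, 0.247 to 0.986 over the alternatives).

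Fcer1g encodes the gamma chain (Entrez 14127, chr1:171229572-171234349), which carries the ITAM for Fcgr1, Fcgr3 and Fcgr4. It had 2094, 2030 and 2270 CPM in repopulated, 2777, 2343 and 2489 CPM in control, and 1388, 1659, 2159 and 1475 CPM in wild-type libraries. Control libraries lay above all others, and repopulated ones lay above 3 of the 4 wild-type libraries. Control averaged 2540 ± 221 CPM (SD, n = 3) and wild type 1670 ± 345 CPM (SD, n = 4), a log2 fold change of 0.60 (SE 0.16, edgeR adjusted p = 0.0176). Repopulated over control was -0.25 (-0.62 to 0.12, edgeR adjusted p = 0.464), and repopulated over wild type 0.35 (edgeR adjusted p = 0.315).

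The higher Fcer1g in control than in wild-type microglia passed in 16 of 23 alternatives (adjusted p 0.000903 to 0.246) and was higher in all. It did not pass without control replicate 1 (0.53, edgeR adjusted p = 0.0856), without wild-type replicate 4 (0.55, 0.055), with the replicate block (0.56, 0.0573), with a term for Y-linked transcripts (0.57, 0.0602) or without the libraries low in them (0.50, 0.246). A correction for GC content and transcript length gave 0.20 (edgeR adjusted p = 0.238) and limma on log2(TPM + 1) gave 0.28 (adjusted p = 0.0835), each more than 1.5 times smaller. On the log2(TPM + 1) scale the median of all tested genes was itself -0.28, against -0.06 in edgeR. The longest coding transcript of Fcer1g in the GENCODE annotation has 683 bases, the shortest of the 6 genes.

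Fcgr2b encodes the inhibitory receptor (Entrez 14130, chr1:170960558-170976071). It had 693, 665 and 802 CPM in repopulated, 997, 919 and 990 CPM in control, and 663, 682, 908 and 674 CPM in wild-type libraries. Control libraries lay above all others, narrowly so over wild-type replicate 3, which was far above the other wild-type libraries. Control over wild type was 0.40 on the log2 scale (SE 0.14, 0.1 to 0.71) and missed the threshold (edgeR adjusted p = 0.0618). It passed with DESeq2 (0.43, adjusted p = 0.0172), with limma-voom (0.42, adjusted p = 0.0463) and without wild-type replicate 3 (0.52, edgeR adjusted p = 0.0112), within a range of 0.0112 to 0.605. It was smaller at 0.27 with the GC and length correction and 0.31 without the libraries low in Y-linked transcripts. With limma on log2(TPM + 1), where the median of all tested genes was -0.28, it was 0.08. Repopulated over control was -0.43 (-0.75 to -0.1, edgeR adjusted p = 0.164) and repopulated over wild type -0.02 (edgeR adjusted p = 0.97).

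Levels of Fcgr2b and Fcgr3 rest on how reads common to the pair were divided. Their estimated counts were both not whole in 9 of 10 libraries, yet their sum was whole in all 10 (tolerance 0.02), and the counts of the other 4 members were whole in every library. Of all 50-base windows in the longest coding transcript, 12.8% of those of Fcgr3 and 4.75% of those of Fcgr2b were identical between them. Summed into 1 row, the pair averaged 5620 ± 385 CPM in repopulated, 5390 ± 802 in control (SD, n = 3 each) and 5300 ± 793 in wild-type libraries (SD, n = 4). The summed log2 fold change was 0.02 for control over wild type (edgeR adjusted p = 0.939), 0.06 for repopulated over control (0.89) and 0.08 for repopulated over wild type (0.882). Fcgr3 alone averaged 4900 CPM in repopulated, 4420 in control and 4570 in wild-type libraries. The sum therefore mostly follows Fcgr3 and cannot show whether Fcgr2b differed.

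Fcgrt encodes the heavy chain of the neonatal Fc receptor (Entrez 14132, chr7:45092993-45103822). It had 99.1, 104 and 122 CPM in repopulated, 84.1, 54.5 and 93.3 CPM in control, and 166, 130, 127 and 146 CPM in wild-type libraries. The 3 groups did not overlap in any pair, with control lowest and wild type highest. Control averaged 77.3 ± 20.3 CPM (SD, n = 3) and wild type 142 ± 17.8 CPM (SD, n = 4), a log2 fold change of -0.88 (SE 0.18, edgeR adjusted p = 0.00303). This call held in all 23 alternatives, at -1.42 to -0.68 (adjusted p 3.85e-05 to 0.0119), with -1.42 where control replicate 2 was the 1 control library left among those with Y-linked transcripts.

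Between repopulated and control microglia Fcgrt was at a log2 fold change of 0.49 (0.1 to 0.88, edgeR adjusted p = 0.179). Without the libraries low in Y-linked transcripts it was 1.00 (edgeR adjusted p = 0.042, 0.042 to 0.524 over the alternatives), but the control group was then replicate 2 alone, the library lowest in Fcgrt. That library was assumed to vary like those of the other groups, which alone gave the spread. Without control replicate 2 it was 0.29 (edgeR adjusted p = 0.524). Between repopulated and wild-type microglia it was -0.39 (edgeR adjusted p = 0.296), and it passed with the GC and length correction (-0.54, edgeR adjusted p = 0.0219, 0.0219 to 0.652 over the alternatives).

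**Figure D3:**
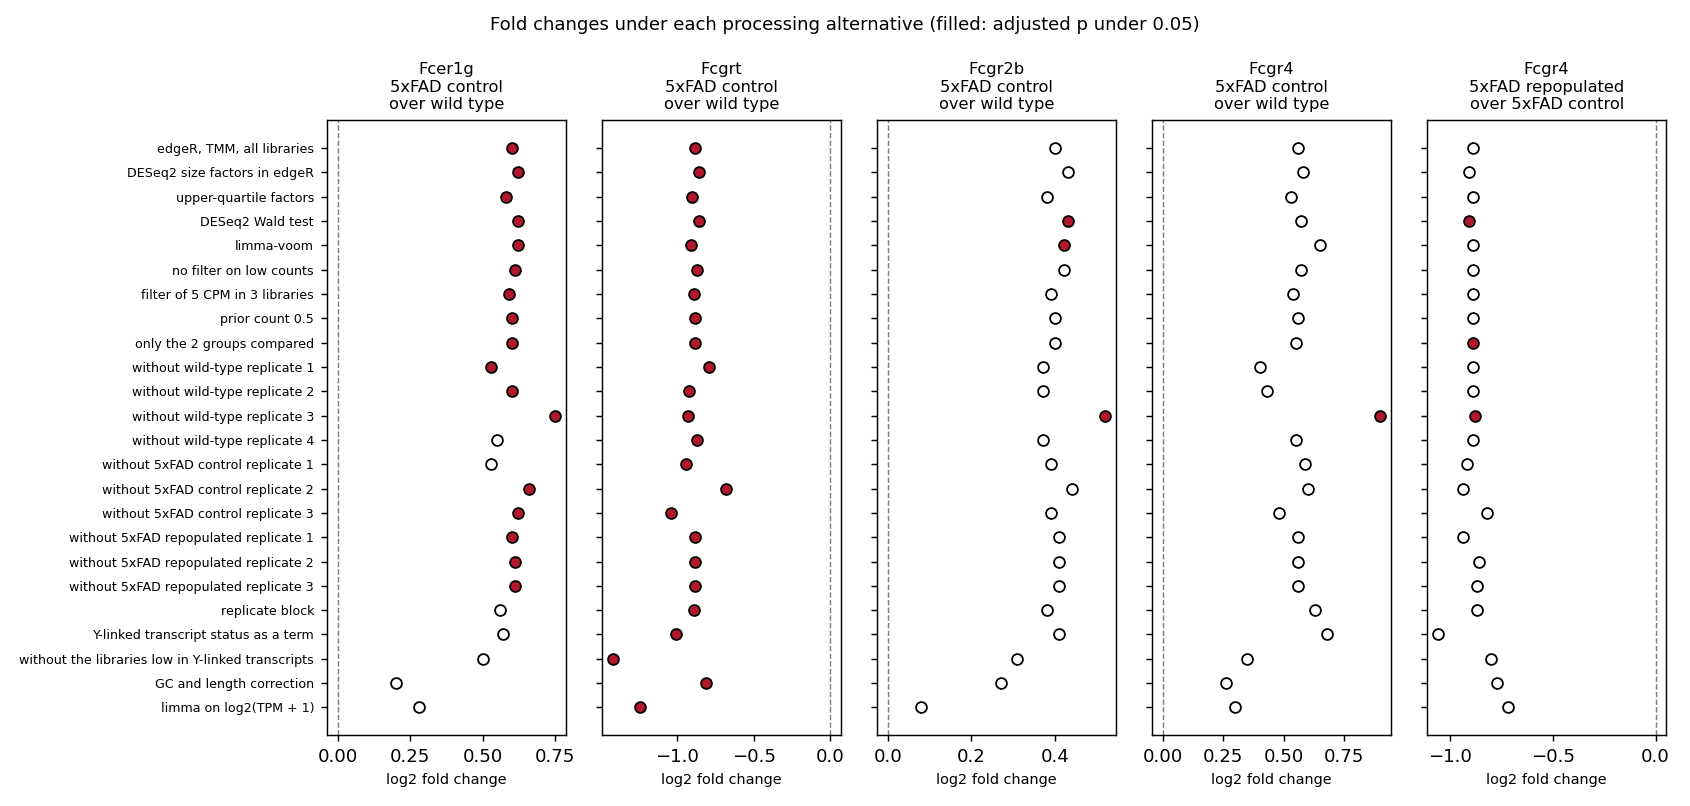
Log2 fold changes (horizontal axes) under each processing alternative (rows) for 5 results, filled where the adjusted p was under 0.05. Fcgrt in control over wild type stays filled in every row, while Fcer1g, Fcgr2b and Fcgr4 change with the library left out or the method.

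The balance of activating to inhibitory receptor transcripts was then described from the deposited TPM, without a test. The summed TPM of Fcgr1, Fcgr3 and Fcgr4 was 7.08 to 7.65 times that of Fcgr2b in repopulated, 4.32 to 5.58 times in control and 6.39 to 7.33 times in wild-type libraries. Control libraries lay below all others, and the repopulated and wild-type ranges overlapped. Fcgr3 made up 84.8% to 85.3% of the TPM of the 4 ligand-binding receptors in repopulated, 76.7% to 81.3% in control and 82.5% to 85.1% in wild-type libraries. Fcgr2b made up 11.6% to 12.4% of it in repopulated, 15.2% to 18.8% in control and 12% to 13.5% in wild-type libraries. As Fcgr3 and Fcgr2b share reads, these values carry the authors' division of them.

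The gamma chain was set against the receptors it serves in the same way. The TPM of Fcer1g was 1.12 to 1.15 times the summed TPM of the 3 activating receptors in repopulated, 1.27 to 1.64 times in control and 0.864 to 1.01 times in wild-type libraries. No pair of groups overlapped, with control highest and wild type lowest. The gamma chain also serves receptors outside this family, so the ratio compares transcripts and says nothing of assembled complexes.

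**Figure D4:**
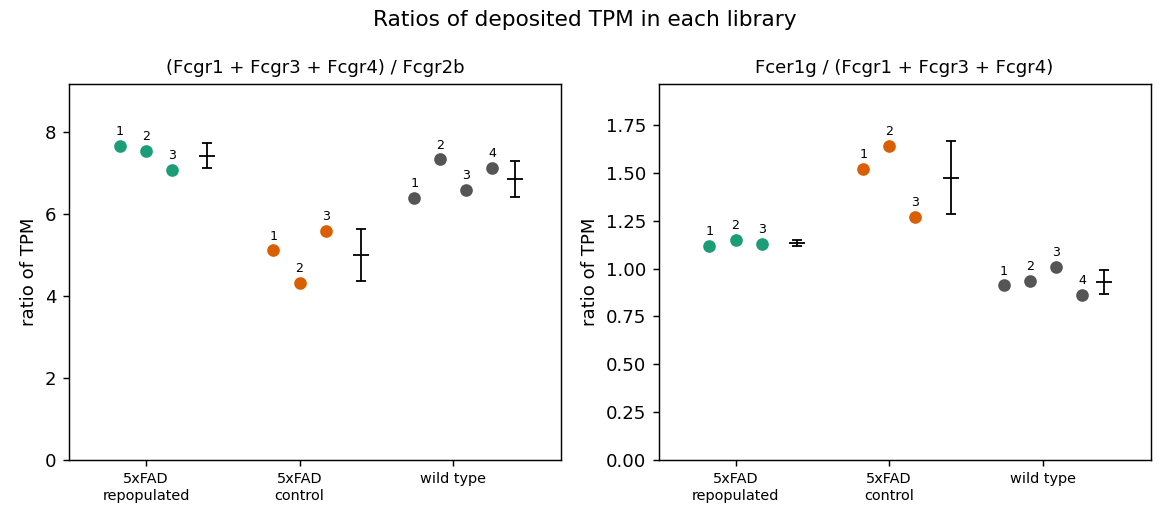
Ratios of deposited TPM (vertical axes, from 0) in each library, numbered by replicate, with the group mean and SD. The 3 control libraries are lowest for activating over inhibitory receptors (4.32 to 5.58) and highest for the gamma chain over activating receptors (1.27 to 1.64).

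Marker lists of other cell types were also measured, among them B cells, which are known to express Fcgr2b. The 7 summed B cell markers were at 60.7 to 77.8 CPM in repopulated, 69.2 to 81.4 in control and 113 to 141 in wild-type libraries, with Pax5 at 0 in both 5xFAD groups and Ms4a1 at 0 in control. Cd79b held most of that sum (45.8 CPM in repopulated, 50.6 in control and 70.6 in wild type). Of 3 tested B cell markers 1 fell and 2 did not pass in each 5xFAD group against wild type. Over all tested genes 8.04% were called lower in control, and 4.18% were called in either direction in repopulated microglia. Natural killer cell markers (5 of 6 in the table) summed to 1.27 to 2.34 CPM in repopulated, 1.18 to 3.06 in control and 0 to 0.27 in wild-type libraries, with Ncr1 at 0 in all and Klre1 and Prf1 at 0 in both 5xFAD groups but not in wild type. That sum was mostly Klrb1c (1.62 CPM in repopulated, 1.79 in control and 0.0804 in wild type). Neutrophil markers (10) ran from 71.9 to 173 CPM in repopulated, 23.5 to 327 in control and 37.7 to 257 in wild-type libraries, highest in control replicate 2, the library lowest in Fcgr3 and Fcgrt. Monocyte markers (8) ran from 33.5 to 35.9 CPM in repopulated, 27.1 to 57.9 in control and 37.4 to 62.1 in wild-type libraries. Control overlapped both other groups, while every repopulated library lay below every wild-type one. Border macrophage markers (8) ran from 56.7 to 98.3 CPM in repopulated, 78.7 to 145 in control and 61.3 to 120 in wild-type libraries. Endothelial markers (6) are of a cell type known to express Fcgrt. They ran from 30.2 to 38.3 CPM in repopulated, 34.1 to 38.4 in control and 14.9 to 39.3 in wild-type libraries. Cldn5 and Ly6c1 were at 0 in both 5xFAD groups but not in wild type. Of 3 tested endothelial markers 1 rose, 1 fell and 1 did not pass in control against wild type. In repopulated against wild type 1 rose and 2 did not pass. Over all tested genes 10.1% were called higher in control. Mast cell and basophil markers reached at most 0.252 CPM in any library. Outside wild-type replicate 3, neuron markers were at most 9.21 CPM, and in that library neuron, erythrocyte and oligodendrocyte markers summed to 56.8, 281 and 123 CPM. The part of these cells in the receptor levels was not tested.

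The genes around the receptors were described from lists of the pathway. Of the ITAM adaptors and other partners of the gamma chain, 6 of 11 were tested. In control against wild-type microglia 3 rose and 3 did not pass, beside 10.1% of all tested genes called higher and 8.04% lower. The median log2 fold change was 1.08, against -0.06 over all tested genes. Tyrobp, the ITAM adaptor of TREM2, averaged 1840 ± 107 CPM in repopulated, 1790 ± 493 in control and 717 ± 122 in wild-type microglia. It rose 2.49-fold in control (edgeR adjusted p = 0.000223) and 2.57-fold in repopulated microglia (edgeR adjusted p = 0.000375), each against wild type. Hcst, another transmembrane adaptor, rose 2.85-fold in control (edgeR adjusted p = 0.000134) and 2.19-fold in repopulated microglia (edgeR adjusted p = 0.00349). Between repopulated and control microglia none of the 6 passed in edgeR, and for Tyrobp the log2 fold change was 0.04 (-0.38 to 0.47). The call of Tyrobp in control microglia, at a log2 fold change of 1.32, was lost at 0.78 without the libraries low in Y-linked transcripts (adjusted p = 0.0525), a fit with control replicate 2 as its 1 control library.

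Of 25 tested kinases and adaptors downstream of activating receptors, 3 rose, 8 fell and 14 did not pass in control against wild-type microglia (median -0.26), beside 10.1% of all tested genes called higher and 8.04% lower. Syk, the kinase that binds the phosphorylated ITAM, averaged 94.6 ± 13.2 CPM in repopulated, 60.2 ± 3.51 in control and 108 ± 27 in wild-type microglia. It fell 1.79-fold in control against wild type (edgeR adjusted p = 0.0055), and was at a log2 fold change of 0.65 for repopulated over control, short of the threshold (edgeR adjusted p = 0.113). Pik3r5, a regulatory subunit of phosphoinositide 3-kinase gamma, fell 1.69-fold (edgeR adjusted p = 0.00653), while Fyn, a Src-family kinase, rose 2.33-fold (edgeR adjusted p = 0.00222). None of the 25 passed for repopulated over control in edgeR (median 0.27), where 0.568% of all tested genes did. Against wild type 2 rose in repopulated microglia, Fyn among them (2.55-fold, edgeR adjusted p = 0.00256), beside 4.18% of all tested genes called in either direction. Leaving out the libraries low in Y-linked transcripts leaves control replicate 2 as the 1 control library. The calls of Syk, Pik3r5 and Fyn in control against wild type were then lost. Their log2 fold changes were -0.96 for Syk (-0.84 with all libraries), -0.86 for Pik3r5 (-0.76 with all) and 0.70 for Fyn (1.22 with all).

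Of 13 signalling genes listed with the inhibitory receptor, not all of which inhibit, 1 rose, 5 fell and 7 did not pass in control against wild-type microglia. Over all tested genes 10.1% were higher and 8.04% lower. Dok3, an adaptor that restrains ITAM signalling, fell 3.93-fold to 6.14 ± 1.19 CPM in control, against 24.1 ± 9.76 CPM in wild-type microglia (edgeR adjusted p = 0.000356). Ptprc, which encodes CD45, a phosphatase and the antigen of the sort gate, rose 1.7-fold to 1170 ± 74.6 CPM in control, against 689 ± 73.9 CPM in wild-type microglia (edgeR adjusted p = 0.00138). It averaged 810 ± 108 CPM in repopulated microglia. None of the 13 passed in edgeR for repopulated against control or against wild type.

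Of 19 genes of the phagocytic cup, 2 fell and 17 did not pass in control against wild-type microglia, a share near the 8.04% of all tested genes called lower. Elmo1, which with DOCK proteins activates Rac during engulfment, averaged 288 ± 21.3 CPM in repopulated, 152 ± 26.2 in control and 370 ± 49.8 in wild-type microglia. It fell 2.44-fold in control against wild type (edgeR adjusted p = 4.33e-05). In repopulated against control it rose 1.9-fold (edgeR adjusted p = 0.0198), the 1 gene of the pathway lists that passed, where 0.568% of all tested genes did. The second call, at a log2 fold change of 0.93, was lost without control replicate 1 (0.98) or 2 (0.79), without repopulated replicate 1 (0.90) or 2 (0.89) and with the term for Y-linked transcripts (1.03), at adjusted p 0.0826 to 0.146. Fermt3, the integrin activator kindlin-3, fell 1.72-fold in control against wild type (edgeR adjusted p = 0.00249).

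In control against wild-type microglia 10.1% of all tested genes were called higher and 8.04% lower. There, 1 of 5 partners and handlers of the neonatal receptor passed. B2m, its light chain, averaged 5300 ± 338 CPM in repopulated, 6800 ± 834 in control and 2820 ± 715 in wild-type microglia, and it is shared with MHC class I. It rose 2.41-fold in control (edgeR adjusted p = 0.000328) and 1.88-fold in repopulated microglia (edgeR adjusted p = 0.0109) against wild type, whereas Fcgrt fell in the first of these comparisons. The second call of B2m, at a log2 fold change of 0.91, was lost without repopulated replicate 3 (0.86, adjusted p = 0.0585) and without the libraries low in Y-linked transcripts (0.85, adjusted p = 0.056).

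Among 13 transcription factors and receptors that act on these genes, 1 rose, 3 fell and 9 did not pass in control against wild-type microglia. Over all tested genes 10.1% were called higher and 8.04% lower there. Ifngr1, a chain of the interferon gamma receptor, fell 1.88-fold in control (938 ± 95.8 CPM, against 1770 ± 133 CPM in wild type, edgeR adjusted p = 0.000315) and 1.6-fold in repopulated microglia (1110 ± 78.9 CPM, edgeR adjusted p = 0.00802). The second of these calls, at a log2 fold change of -0.67, was lost without repopulated replicate 1 (-0.66, adjusted p = 0.0603) or 2 (-0.63, adjusted p = 0.0618). Tgfbr2, a receptor of TGF-beta, rose 1.5-fold in control, at a log2 fold change of 0.59 (edgeR adjusted p = 0.00546). It did not pass with limma on log2(TPM + 1) (0.25, adjusted p = 0.177), where the median of all tested genes was -0.28. The call was also lost at 0.47 without the libraries low in Y-linked transcripts, which leaves 1 control library. Of 6 tested other Fc and Fc-like receptors, Fcrl1 fell 1.75-fold to 141 ± 17.1 CPM in control, against 247 ± 21.6 CPM in wild-type microglia (edgeR adjusted p = 0.00189), and the other 5 did not pass. The share of all tested genes called lower in that comparison was 8.04%. Jchain was the 1 gene of 11 in the immunoglobulin list that the table held, and it did not pass in any comparison.

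Across the 10 libraries the members fell into no single pattern. As a description over libraries that share groups and normalisation, Pearson's r of log2 CPM was 0.89 between Fcgr4 and Fcgr2b, 0.83 between Fcer1g and Fcgr2b, 0.66 between Fcgr4 and Fcer1g, and -0.74 between Fcer1g and Fcgrt. Fcgr1 and Fcgr3 were at -0.25 with each other. Of 12499 other tested genes, the most like Fcer1g were Tmem256 (0.991), Gng5 (0.985) and Bloc1s1 (0.985). The most like Fcgr2b were Mfsd1 (0.972), Trim37 (0.96) and Sgpp1 (0.955), and the most like Fcgr4 Trim37 (0.925), 4930503L19Rik (0.922) and Rpe (0.922). Fcgrt was most like Pknox1 (0.975), Mus81 (0.973) and Ninj1 (0.969). The genes closest to Fcgr3 were Naxe (0.955), Rab7 (0.949) and Ppie (0.941), and those closest to Fcgr1 were less close, with Irf2bpl (0.819), Dqx1 (0.809) and Trim30b (0.802).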

How the data were processed

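RNA-seq of 10 libraries of sorted hippocampal microglia was analysed, grouped by genotype and diet from the labels. The authors deposited estimated counts (expected counts), FPKM and TPM for 19782 genes in each library. The deposited estimated counts are not normalised, and at a tolerance of 0.001 their nonzero values were not whole in 20.1% of cases. The deposited FPKM and TPM account for transcript length and depth, as their names in the file headers say. HISAT, Bowtie2 and the build GRCm38.p6 are named in the submitters' processing notes. The quantifier is not given in the sources used here, nor is any version. Such counts divide reads between similar genes.

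Counts were rounded and tested with edgeR 4.0.16 (R 4.3.3): filterByExpr (12505 genes), TMM, robust quasi-likelihood fits, 1 model of 3 groups over 10 libraries, and Benjamini-Hochberg adjustment over all tested genes at 0.05. A prior count of 0.125 was used for fold changes, and the biological coefficient of variation came to 27.3%. Intervals are at 95% and cover the spread between libraries. Levels between libraries are TMM-scaled CPM, and levels between genes are the deposited TPM. No pair of libraries in a group agreed within sampling noise (chi-square per degree of freedom 15.5 to 97).

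The members and lists were chosen with earlier results of these data known. Named pathway genes were the up to 4 of each list with the smallest p for control against wild type and up to 2 for repopulated against control, and the 3 genes closest to each member by Pearson's r (log2 CPM, prior count 2). The text omits some of these, and a few are not reported here. Replicate numbers did not pair the libraries: of 9 same-numbered pairs 0 correlated over 0.1 (r -0.105 to 0.071). Alternatives were DESeq2 factors, upper-quartile factors, DESeq2 1.42.0, limma-voom (limma 3.58.1), other filters on low counts, another prior count, the compared groups alone, each library left out, a replicate block, a term for Y-linked transcripts (4 genes, threshold 50 CPM) and leaving out the 3 libraries low in them. Chosen after seeing the data were a correction for GC content and transcript length, limma on log2(TPM + 1), and Fcgr2b and Fcgr3 summed.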

Additional observations from a re-analysis of the deposited data

Results flagged for a closer look

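Fcgr2b in wild-type replicate 3 was at 908 CPM, while its group otherwise had 663 to 682 CPM. The gap to the nearest library was 0.922 of the group's range, that is past the critical value of Dixon's test at 95% for 4 libraries. The 6 members were examined in the wild-type group, the only one with more than 3 libraries, and this was the 1 value marked. Chance marks about 5% of such groups.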

How the results depend on the processing

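Over the alternatives, no member that was called in edgeR changed direction. All other values given here belong to the comparison named in the sentence. For control against wild type, 2265 genes were called (1260 higher, 1005 lower). There were 1464 with the replicate block, 1202 without the libraries low in Y-linked transcripts and 3744 with limma on log2(TPM + 1), of which 687 were higher and 3057 lower. The GC and length correction gave 1090 higher and 1240 lower. Leaving out each library gave 1315 (without control replicate 1) to 2910. Of the members, 2 were called, with 1 under the replicate block, the term for Y-linked transcripts, without the libraries low in them and with GC and length corrected, and 3 with DESeq2 and limma-voom. Leaving out libraries gave 1 (without control replicate 1 or wild-type replicate 4) to 4 (without wild-type replicate 3).

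The numbers of the libraries are shared only as numbers, and under the replicate block Fcer1g was at 0.56 (adjusted p = 0.0573) and Fcgr1 at 0.04 for control over wild type. Fcer1g was also short of the threshold at 0.57 with the term for Y-linked transcripts, 0.50 without the libraries low in them, 0.20 with the GC and length correction and 0.28 with limma on log2(TPM + 1). Leaving out each library moved it over 0.53 to 0.75, Fcgr2b over 0.37 to 0.52 and Fcgr4 over 0.40 to 0.90. Fcgr2b passed at 0.43 with DESeq2 and 0.42 with limma-voom, and Fcgr3 at -0.39 with limma on log2(TPM + 1). The median of all tested genes on the log2(TPM + 1) scale was -0.28.

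For repopulated against control, 71 genes were called (44 higher, 27 lower). The count was 619 with DESeq2, 125 with limma-voom, 166 with no filter, 125 with a filter of 5 CPM, 630 with the compared groups alone, 25 with the replicate block, 1 with the term for Y-linked transcripts, 388 without the libraries low in them and 146 with limma on log2(TPM + 1) (131 higher, 15 lower). Leaving out each library gave 0 (without repopulated replicate 2) to 328 (without wild-type replicate 3). Of the members 0 were called, but 1 with DESeq2 or the compared groups alone (Fcgr4, -0.91 and -0.89) and 1 without the libraries low in Y-linked transcripts (Fcgrt, 1.00). Leaving out libraries gave 0 to 1. For Fcgr4 these fits gave -0.94 to -0.82.

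For repopulated against wild type, 523 genes were called (425 higher, 98 lower), with 289 without the libraries low in Y-linked transcripts, 412 higher and 217 lower with the GC and length correction, and 316 and 312 with limma on log2(TPM + 1). Leaving out each library gave 284 to 688. Of the members 0 were called, but 1 with the GC and length correction (Fcgrt, -0.54).

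Signs also turned, in no case past the threshold. For control over wild type, Fcgr3 was at 0.05 without wild-type replicate 3 and 0.09 without control replicate 2 (-0.15 to 0.09 over the libraries left out), and Fcgr1 at 0.03 without wild-type replicate 4 (-0.15 to 0.03) and 0.05 with the term for Y-linked transcripts. For repopulated over control, Fcgr1 was at 0.07 with limma on log2(TPM + 1). For repopulated over wild type, Fcgr4 was at 0.01 (-0.48 to 0.01) and Fcgr2b at 0.11 (-0.1 to 0.11) without wild-type replicate 3, Fcgr2b at 0.01 and 0.03 without repopulated replicates 1 and 2, and Fcgr3 at -0.09 with the GC and length correction and -0.07 with limma on log2(TPM + 1). The causes were not tested. Of 29 calls of named pathway genes, 11 held under every alternative, 18 were lost under at least 1, and 0 changed direction.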
